A study of Rattus norvegicus with 26 samples.

Results

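The blood clotting and complement systems are built largely from proteins that the liver makes and secretes. The genes described here are 36 of a list of 41 genes for clotting factors, fibrinogen chains, their inhibitors, fibrinolytic proteins, complement components and plasma carrier proteins. The list was chosen by function, with earlier results of these data known. The other 5 were left out: no probe set carried the symbol F7, F11 or F13b, and C2 and Cfb appeared only on 4 probe sets that are assigned to several symbols at once. Each gene is represented by the probe set with 1 gene symbol that had the highest mean over all 26 arrays, and the arrays measured 14217 genes in this way.

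The study put male rats of the inbred Long-Evans (Turku/AB) strain, 11 to 15 weeks old at the start, on an acute progressive feed restriction and compared them with control rats that were not restricted. The day 4 livers came from 4 rats per group and the day 10 livers from 5 rats per group, and inguinal white adipose tissue of day 4 came from 4 rats per group. All rats, controls included, were given corn oil at 4 mL/kg on day 0. The 4-day regimen used pelleted feed in daily portions of 18, 12, 9 and 6 g, and the 10-day regimen used powdered feed, unlimited on day 0 and then lowered from 16 g on day 1 over 8 g on day 4 and 4 g on days 6 and 7 to 1 g on day 9, so that time, feed form and portion size cannot be told apart between the regimens. A restricted rat received its whole portion at once in the light hours.

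Clotting runs as a cascade of serine proteases and their cofactors that ends in thrombin, which turns fibrinogen into fibrin. Serpins and the protein C pathway restrain it, and plasmin dissolves the clot. Complement is started by the C1 complex on antibody, by mannose-binding lectins on microbial sugars or by slow turnover of C3, and its terminal components assemble a pore in the target membrane. Hepatocytes make most of these proteins and macrophages make part of the early components, above all C1q.

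Values are log2 expression, and a change is the restricted mean minus the control mean of 1 probe set. They are not compared as amounts between genes, since probe sets differ in response. Day 4 liver, day 10 liver and adipose tissue had been normalised apart, so each change was computed within its own set. Rose and fell are used of genes whose adjusted p from limma was below 0.05. According to the series description every array holds another rat, and so the tests take each array as 1 animal. The number of arrays limits the precision.

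In the day 10 set the arrays had been scanned on 2 days, 3 controls and 2 restricted rats on the first and 2 controls and 3 restricted rats on the second, and values within each day are given below. Array medians lay between 3.16 and 3.32 in liver. Among 11 hepatocyte markers 1 rose and 0 fell at day 4 and 3 rose and 1 fell at day 10, and their mean per array was 14.36 to 14.45 in the day 10 controls and 14.55 to 14.72 in the restricted rats. Without Tat, the marker with the largest change (1.89), these means were 14.69 to 14.73 and 14.76 to 14.85. Of the Kupffer cell and macrophage markers 6 of 10 fell at day 4 (median change -0.66) and 9 of 10 at day 10 (median -1.11), with 0 rising. Their mean per array was 8.99 to 9.19 in controls and 8.21 to 8.61 in restricted rats at day 4, and 9.62 to 10.02 against 8.46 to 9.04 at day 10, and 0 of these markers lay at or below the array median. In whole liver, fewer cells of a type and less RNA per cell cannot be told apart. At day 10 2 of 3 red blood cell markers and 1 of 6 lymphocyte markers fell, and in the list for stellate and bile duct cells, with 8 measured, 2 rose and 1 fell. These 3 lists had 0 calls by limma at day 4, and the 7 endothelial, 5 neutrophil and platelet and 5 adipocyte markers had 0 calls at either time. In every liver group 4 of 5 adipocyte and 4 of 6 lymphocyte markers lay at or below the array median, against 1 of 7 endothelial markers. Of the neutrophil and platelet markers 3 of 5 did so at day 4 and 4 of 5 at day 10. For adipocytes, lymphocytes, neutrophils and platelets, a lack of calls therefore says little.

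Most of the clotting and complement genes moved little. At day 4, 5 of 36 rose and 3 fell, where limma called 4.53% of all genes higher and 3.97% lower, and 9.16% and 7.79% of genes with a mean of at least 5 over both groups. At day 10, 7 rose and 14 fell, against 8.67% and 8.15% of all genes, and against 16.4% and 15.3% of genes with such means. The share that fell at day 10, 38.9%, was above these backgrounds, while the share that rose, 19.4%, lay close to that of the latter. Because the list was chosen with earlier results of these data known, these shares are a description and not an independent test. The groups did not overlap for 6 genes higher and 4 lower at day 4, against 8.36% and 7.51% of all genes, and for 7 higher and 15 lower at day 10, against 8.53% and 8.2%. Without day 4 control rat 3, 5 genes were called lower at day 4. The median change of the 36 was -0.04 at day 4 and -0.08 at day 10, beside 0.0083 and 0.0030 over all genes. The change was within 0.5 in either direction for 33 genes at day 4 and 30 at day 10. With the 1 probe set used per gene, a 2-fold change was reached by C6 alone, at both times. Second probe sets of Fga and Mbl2 also passed 2-fold at day 10 (log2 changes -1.22 and -1.09).

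**Figure D1:**
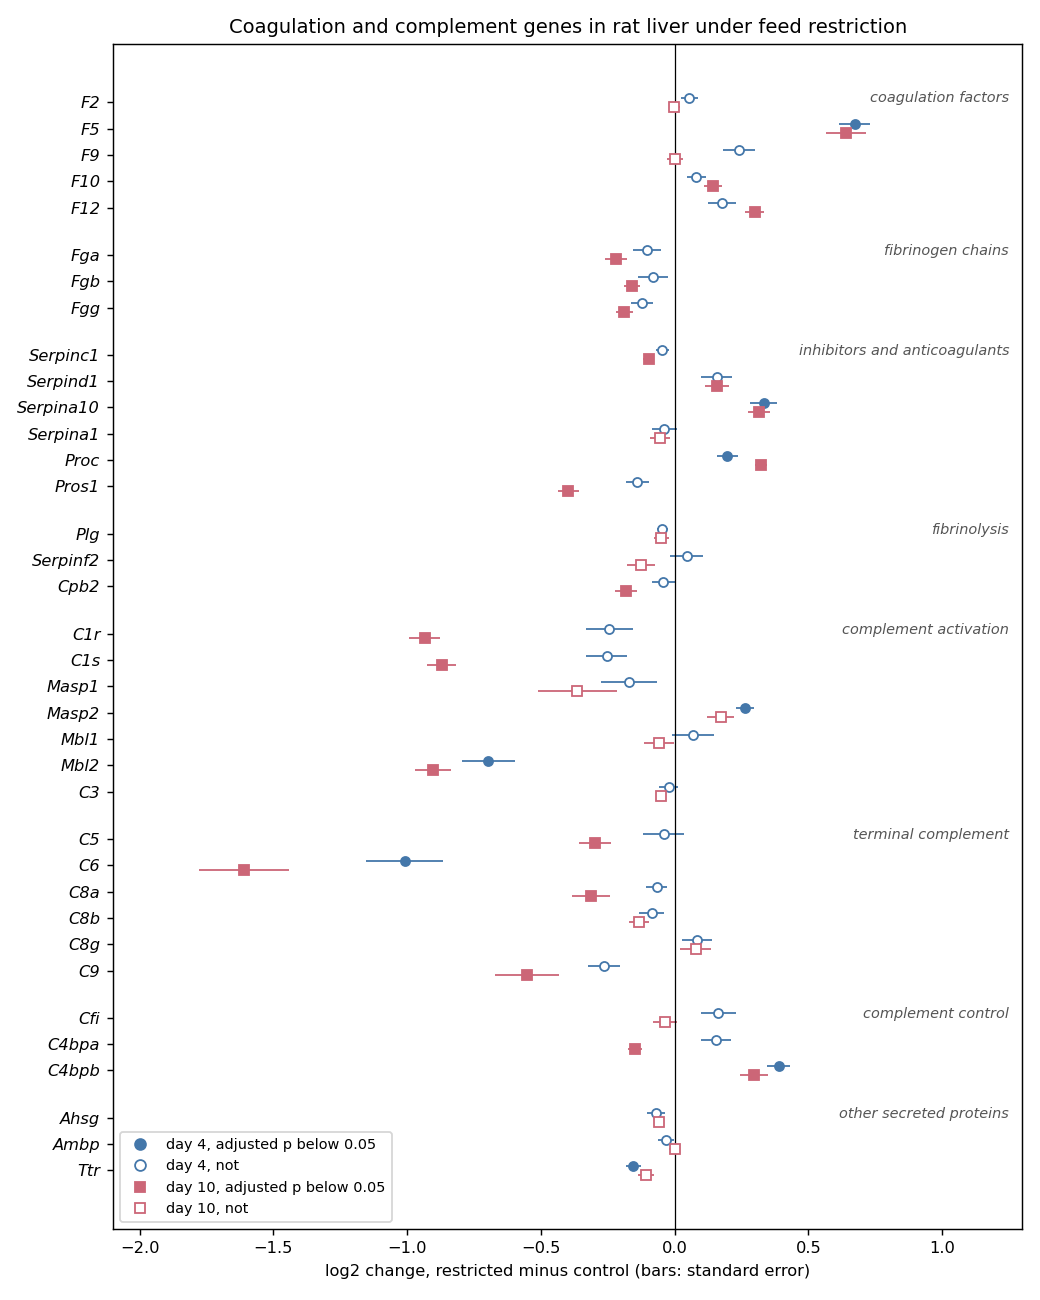
Log2 change (restricted minus control) of the 36 genes in liver at day 4 and day 10, grouped by role, with bars for the standard error; filled points passed the test. C6, C1r, Mbl2 and C1s lie farthest below 0 at day 10, between -1.61 and -0.87, and F5 lies farthest above it at 0.64.

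Of the genes called at a time, 6 were called at both with the same direction: F5, Serpina10, Proc and C4bpb rose, and Mbl2 and C6 fell. Masp2 and Ttr were called at day 4 alone and 15 genes at day 10 alone, and 0 were called in opposite directions. At neither time were F2, F9, Serpina1, Plg, Serpinf2, Masp1, Mbl1, C3, C8b, C8g, Cfi, Ahsg and Ambp called. The difference between the day 10 and the day 4 change passed its own test for 3 genes, C1r, C1s and C4bpa, all with the lower change at day 10, where 0.408% of all genes were called lower and 0.57% higher. The other calls made at 1 time were not shown to differ between the times.

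Windows around the start site of the genes on which these results turn are printed here, 300 bases each with most of them before the start, from the RefSeq promoter table for build GRCr8, 5′ to 3′ on the strand of the gene. They are of 3 genes that fell (C6, C1r and Mbl2), of 2 that rose (F5 and Proc) and of C4bpa and C4bpb. C4bpa and C4bpb, with 1 gene between them, moved in opposite directions at day 10. Capitals mark any match, on either strand, to 5 short motifs known from liver promoters: GTTAAT (HNF1), TTGCNNAA (C/EBP), TTCNNNGAA (STAT), AGGTCA and CAAAGTC (HNF4 and other nuclear receptors). The windows lie at chr2:55573383-55573682 on the plus strand for C6, chr4:159098763-159099062 on the plus strand for C1r, chr1:237430793-237431092 on the plus strand for Mbl2, chr13:79046407-79046706 on the plus strand for F5, chr18:24048892-24049191 on the minus strand for Proc, chr13:44663422-44663721 on the minus strand for C4bpa and chr13:44683732-44684031 on the minus strand for C4bpb.
C6: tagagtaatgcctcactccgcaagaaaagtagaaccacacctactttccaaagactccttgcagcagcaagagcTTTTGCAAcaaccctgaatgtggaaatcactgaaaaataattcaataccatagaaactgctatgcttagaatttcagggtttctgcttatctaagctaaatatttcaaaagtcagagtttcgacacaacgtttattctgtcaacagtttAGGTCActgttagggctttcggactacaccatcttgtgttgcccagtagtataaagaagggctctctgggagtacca
C1r: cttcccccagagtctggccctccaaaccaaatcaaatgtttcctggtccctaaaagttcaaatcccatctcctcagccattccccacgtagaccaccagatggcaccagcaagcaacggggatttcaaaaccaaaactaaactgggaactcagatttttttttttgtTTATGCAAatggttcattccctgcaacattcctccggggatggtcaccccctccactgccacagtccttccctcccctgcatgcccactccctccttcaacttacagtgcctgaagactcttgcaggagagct
Mbl2: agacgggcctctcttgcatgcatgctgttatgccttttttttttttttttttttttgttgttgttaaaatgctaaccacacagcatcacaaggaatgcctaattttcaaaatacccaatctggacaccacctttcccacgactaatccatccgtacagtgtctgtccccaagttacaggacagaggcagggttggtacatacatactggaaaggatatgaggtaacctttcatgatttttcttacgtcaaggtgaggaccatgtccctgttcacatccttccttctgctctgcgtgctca
F5: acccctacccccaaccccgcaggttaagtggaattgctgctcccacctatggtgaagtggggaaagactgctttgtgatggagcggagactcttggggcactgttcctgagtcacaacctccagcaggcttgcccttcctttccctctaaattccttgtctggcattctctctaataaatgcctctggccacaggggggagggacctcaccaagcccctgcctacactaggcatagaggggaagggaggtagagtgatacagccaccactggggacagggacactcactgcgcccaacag
Proc: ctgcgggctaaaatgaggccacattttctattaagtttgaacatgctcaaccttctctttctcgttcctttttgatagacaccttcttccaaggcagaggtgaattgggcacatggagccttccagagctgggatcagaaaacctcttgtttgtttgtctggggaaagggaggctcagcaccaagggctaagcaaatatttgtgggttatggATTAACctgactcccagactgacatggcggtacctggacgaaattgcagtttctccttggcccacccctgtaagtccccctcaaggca
C4bpa: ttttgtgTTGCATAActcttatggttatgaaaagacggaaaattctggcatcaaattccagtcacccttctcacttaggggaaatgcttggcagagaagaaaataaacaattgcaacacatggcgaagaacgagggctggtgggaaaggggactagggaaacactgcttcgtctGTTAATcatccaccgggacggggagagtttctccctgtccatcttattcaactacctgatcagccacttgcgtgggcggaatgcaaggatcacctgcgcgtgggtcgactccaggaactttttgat
C4bpb: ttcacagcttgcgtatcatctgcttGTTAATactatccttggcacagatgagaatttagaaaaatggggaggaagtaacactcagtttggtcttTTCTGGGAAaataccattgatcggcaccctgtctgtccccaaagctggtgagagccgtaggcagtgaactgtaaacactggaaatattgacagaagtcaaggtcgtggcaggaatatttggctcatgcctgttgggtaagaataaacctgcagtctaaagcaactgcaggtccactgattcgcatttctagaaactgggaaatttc

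The C6 window holds a C/EBP-like match and an AGGTCA, the C1r window a C/EBP-like match, the Proc window a GTTAAT, the C4bpa window a GTTAAT and a C/EBP-like match, and the C4bpb window a GTTAAT and a STAT-like match. Those of Mbl2 and F5 hold none of the 5 motifs. Over the 29 of 36 genes in the table, GTTAAT was found in 9 windows (31.0%), against 7.45% of all 33469 windows of 300 bases. TTGCNNAA was found in 11 (37.9% against 10.6%), TTCNNNGAA in 6 (20.7% against 8.87%), AGGTCA in 11 (37.9% against 16.2%) and CAAAGTC in 2 (6.90% against 4.61%). Matches of TTGCNNAA and CAAAGTC overlapped in 2 genes, and 0 other motif pairs overlapped. Of the 11 genes that fell at day 10 and had a window, 5 held GTTAAT, 7 TTGCNNAA, 4 TTCNNNGAA, 4 AGGTCA and 0 CAAAGTC. Of the 5 that rose and had a window, 2 held GTTAAT, 0 TTGCNNAA, 1 TTCNNNGAA, 1 AGGTCA and 0 CAAAGTC. These splits were not tested. A match describes the letters of the window and is not a binding site.

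Among the 5 clotting factors measured, 1 rose at day 4 and 3 at day 10, and 0 fell. F5, the cofactor of the enzyme that makes thrombin, rose by about the same amount in both regimens. At day 4 F5 read 11.25, 11.47, 11.32 and 11.39 in the controls and 12.00, 11.95, 12.14 and 12.02 in the restricted rats, and at day 10 11.52, 11.74, 11.69, 11.77 and 11.57 against 12.16, 12.16, 12.44, 12.29 and 12.44. At both times every restricted rat lay above every control. F5 was 1.59-fold higher at day 4 (log2 change 0.67, SE 0.058, n = 4 and 4, adjusted p = 0.00132) and 1.56-fold higher at day 10 (log2 change 0.64, SE 0.075, n = 5 and 5, adjusted p = 0.000692). Within the 2 scan days its change was 0.51 on the first and 0.72 on the second.

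F12 and F10 rose at day 10. F12, the factor that starts the contact pathway, read 12.86, 12.91, 12.87, 12.91 and 12.88 in controls and 13.15, 13.10, 13.25, 13.14 and 13.30 in restricted rats (log2 change 0.30, SE 0.037, n = 5 and 5, adjusted p = 0.000907). All 5 restricted rats were above all controls. F10, the protease that cuts prothrombin, read 13.02, 13.15, 13.12, 13.04 and 13.12 against 13.17, 13.20, 13.31, 13.23 and 13.26, also without overlap (log2 change 0.14, SE 0.034, n = 5 and 5, adjusted p = 0.0249). The call of F10 was lost without control 1 or 4 or without restricted rat 3, 4 or 5 (adjusted p 0.0529 to 0.0631). Centring each array on its median (adjusted p = 0.0601) and eBayes trend and robust settings (adjusted p = 0.0503) lost it as well. At day 4 the changes of F12 and F10 were 0.18 and 0.081. F2, prothrombin itself, had a change of 0.055 (95% interval -0.022 to 0.13, adjusted p = 0.597) at day 4 and a change of -0.00122 (95% interval -0.050 to 0.048, adjusted p = 0.99999) at day 10. F9, the factor lacking in haemophilia B, had a change of 0.24 (95% interval 0.10 to 0.38, adjusted p = 0.0688) at day 4, without overlap between the groups, and a change of 0.000919 (95% interval -0.069 to 0.071, adjusted p = 0.99999) at day 10. Without day 4 control 1 the adjusted p of F9 was 0.0456 for the day 4 change and 0.0464 for the difference between the times.

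The 3 fibrinogen chains, which are joined into 1 protein, had negative changes at both times and fell at day 10 by small amounts. Fga read 15.46, 15.38, 15.40, 15.43 and 15.46 in the day 10 controls and 15.29, 15.31, 15.20, 15.12 and 15.12 in the restricted rats (log2 change -0.22, SE 0.041, n = 5 and 5, adjusted p = 0.00821). Fgb read 15.13, 15.08, 15.14, 15.13 and 15.20 against 15.04, 15.02, 14.92, 14.99 and 14.92 (log2 change -0.16, SE 0.030, n = 5 and 5, adjusted p = 0.00825). Replicate number as a block lost the Fgb call (adjusted p = 0.0715). Fgg read 15.00, 14.98, 14.91, 14.99 and 15.03 against 14.84, 14.86, 14.76, 14.78 and 14.73 (log2 change -0.19, SE 0.031, n = 5 and 5, adjusted p = 0.00403). The groups did not overlap for any of the chains, and on the linear scale the changes ran from -10.4% to -14.1%. The falls were smaller on the first scan day than on the second, -0.12 and -0.30 for Fga, -0.088 and -0.22 for Fgb and -0.11 and -0.25 for Fgg. At day 4 the changes were -0.10, -0.081 and -0.12, and 0 were called, though Fgg was without control 3 (adjusted p = 0.0455). In the gene table of GRCr8 Fga lies next to both Fgb and Fgg on chromosome 2.

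Fga and Fgb are among 7 genes with a day 10 control mean of at least 15, near the highest value of any probe set on these arrays, 16.15 to 16.18 at day 10. The changes of those 7 (Fga, Fgb, Serpina1, C3, Ahsg, Ambp and Ttr) lay between -0.22 and 0.000025. A second probe set for Fga gave a larger fall: 12.83 ± 0.10 (SD, n = 5) in controls and 11.62 ± 0.48 (SD, n = 5) in restricted rats at day 10 (log2 change -1.22, SE 0.21, n = 5 and 5, adjusted p = 0.00475), and -0.29 (SE 0.31, adjusted p = 0.959) at day 4. The 2 probe sets thus agree in direction at day 10 and differ in size, and whether the level near the top of the scale has a part in this was not tested.

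Among the 6 inhibitors and anticoagulants, 2 rose at day 4, and 3 rose and 2 fell at day 10. Proc, protein C, which inactivates factor V and factor VIII once activated, read 12.79, 12.88, 12.78 and 12.69 in the day 4 controls and 13.03, 12.96, 12.97 and 12.97 in the restricted rats. At day 10 Proc read 13.09, 13.16, 13.12, 13.12 and 13.18 against 13.51, 13.48, 13.42, 13.42 and 13.45. The groups were apart at both times (log2 change 0.20, SE 0.040, n = 4 and 4, adjusted p = 0.0347 at day 4; log2 change 0.32, SE 0.024, n = 5 and 5, adjusted p = 9.12e-05 at day 10), and within the day 10 scan days the change was 0.37 on the first and 0.28 on the second. The day 4 call of Proc was lost without control 1, 3 or 4 or without any 1 of the 4 restricted rats (adjusted p 0.0543 to 0.1). It was also lost with each array centred on its median, quantile normalization, eBayes trend and robust settings or replicate number as a block (adjusted p 0.0551 to 0.125). Pros1, protein S, the cofactor of activated protein C, moved the opposite way: it read 11.78, 11.70, 11.85, 11.93 and 11.84 in the day 10 controls and 11.43, 11.44, 11.38, 11.41 and 11.45 in the restricted rats (log2 change -0.40, SE 0.039, n = 5 and 5, adjusted p = 0.000303). All restricted rats lay below all controls. The day 4 change of Pros1 was -0.14 (adjusted p = 0.138, and 0.0277 without restricted rat 2), and its difference between the times was not called (-0.26, adjusted p = 0.0654, and 0.0291 without day 10 control 2).

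Serpina10, the inhibitor of factor X that works with protein Z, read 12.15, 12.14, 11.92 and 12.01 in the day 4 controls against 12.41, 12.37, 12.39 and 12.36 in the restricted rats (log2 change 0.33, SE 0.051, n = 4 and 4, adjusted p = 0.0119). At day 10 the values were 12.26, 12.43, 12.35, 12.45 and 12.35 against 12.62, 12.73, 12.72, 12.74 and 12.61 (log2 change 0.32, SE 0.042, n = 5 and 5, adjusted p = 0.00139). The groups were apart at both times. The day 4 call of Serpina10 was lost with quantile normalization (adjusted p = 0.0574) and with replicate number as a block (adjusted p = 0.0523). Serpind1, heparin cofactor II, rose at day 10 (log2 change 0.16, SE 0.043, n = 5 and 5, adjusted p = 0.0483) and Serpinc1, antithrombin, fell (log2 change -0.10, SE 0.020, n = 5 and 5, adjusted p = 0.0135), both by small amounts. The Serpinc1 call was lost among genes with a mean of at least 5 (adjusted p = 0.0949) and with each array centred on its median (adjusted p = 0.111). Losses also came with eBayes trend and robust settings (adjusted p = 0.0666) and with replicate number as a block (adjusted p = 0.0572). The Serpind1 call was lost without any 1 of the 5 controls or without restricted rat 3, 4 or 5 (adjusted p 0.0644 to 0.112). Quantile normalization, eBayes trend and robust settings and replicate number or scan day as a block lost it too (adjusted p 0.0582 to 0.0978). At day 4 Serpind1 was called without restricted rat 2 alone (adjusted p = 0.0413). Serpina1, the elastase inhibitor alpha-1-antitrypsin, had a change of -0.053 (95% interval -0.14 to 0.031, adjusted p = 0.61) at day 10. Counted by chemistry, of the 5 measured genes for vitamin K-dependent proteins (F2, F9, F10, Proc and Pros1) 1 rose at day 4, and 2 rose and 1 fell at day 10.

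Of the 3 fibrinolysis genes 1 changed, at day 10. Cpb2, the carboxypeptidase that protects fibrin from lysis, read 13.47, 13.48, 13.38, 13.51 and 13.48 in controls and 13.30, 13.37, 13.34, 13.25 and 13.15 in restricted rats and fell (log2 change -0.18, SE 0.042, n = 5 and 5, adjusted p = 0.0216), with all restricted rats below all controls. The call was lost without control 2, 4 or 5 or without restricted rat 4 (adjusted p 0.0525 to 0.0561). Centring each array on its median (adjusted p = 0.0736) and replicate number as a block (adjusted p = 0.0860) lost it as well. Plg, the precursor of plasmin, and Serpinf2, the plasmin inhibitor, were not called: the changes at day 10 were -0.050 (95% interval -0.11 to 0.013) and -0.13 (-0.24 to -0.011). Without control 1, Serpinf2 was called lower at day 10 (adjusted p = 0.034).

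**Figure D2:**
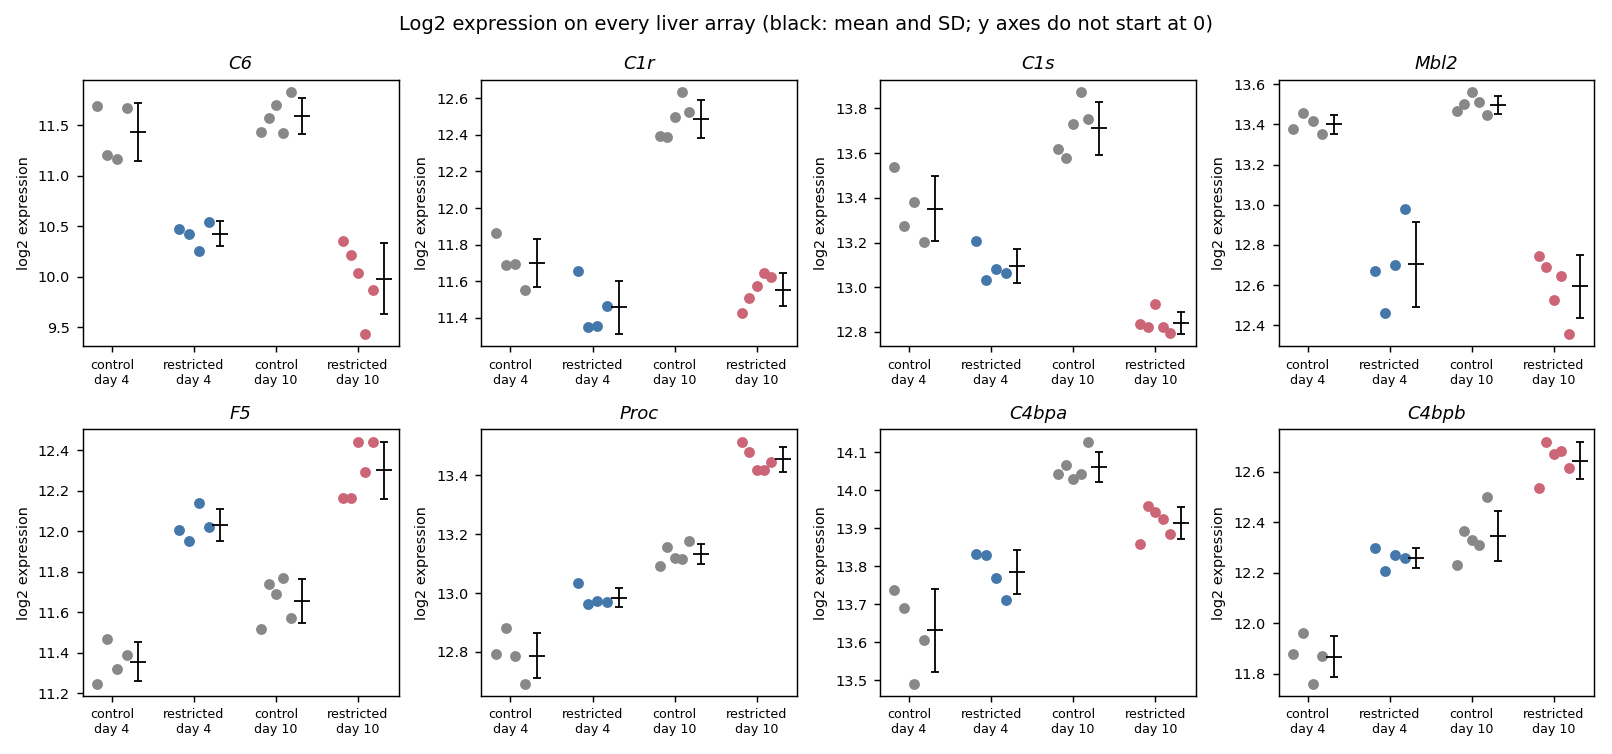
Log2 expression of C6, C1r, C1s, Mbl2, F5, Proc, C4bpa and C4bpb on every liver array, with the group mean and SD in black; the y axes do not start at 0. At day 10 the restricted rats lie apart from the controls for all 8 genes, below them for C6, C1r, C1s, Mbl2 and C4bpa and above them for F5, Proc and C4bpb.

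The largest falls were among the early complement genes and in C6. Of the 7 activation genes 1 rose and 1 fell at day 4 and 3 fell at day 10, when the median change was -0.36. C1r and C1s, the proteases of the C1 complex, lie next to each other on chromosome 4 and moved by nearly the same amount. C1r read 12.39, 12.39, 12.50, 12.64 and 12.52 in the day 10 controls and 11.42, 11.51, 11.57, 11.64 and 11.62 in the restricted rats, and C1s 13.62, 13.58, 13.73, 13.87 and 13.75 against 12.84, 12.82, 12.92, 12.82 and 12.80. There was no overlap for either gene. C1r was 1.91-fold lower (log2 change -0.94, SE 0.058, n = 5 and 5, adjusted p = 4e-05) and C1s 1.83-fold lower (log2 change -0.87, SE 0.054, n = 5 and 5, adjusted p = 4e-05).

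At day 4 the same genes overlapped between the groups: C1r read 11.87, 11.69, 11.69 and 11.55 in controls and 11.66, 11.35, 11.35 and 11.47 in restricted rats, and C1s 13.54, 13.28, 13.38 and 13.20 against 13.20, 13.03, 13.08 and 13.07. The changes of -0.24 and -0.25 were not called (adjusted p = 0.226 and adjusted p = 0.125). The test of the difference between the day 10 and day 4 changes gave -0.69 for C1r (SE 0.11, adjusted p = 0.00816) and -0.62 for C1s (SE 0.094, adjusted p = 0.00789). Within the scan days the day 10 changes were -0.96 and -0.97 for C1r and -0.81 and -0.97 for C1s. The Kupffer cell and macrophage markers fell at the same times, and their part in these values was not tested.

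Mbl2, a mannose-binding lectin that starts the lectin pathway, fell in both regimens. It read 13.38, 13.46, 13.41 and 13.35 in the day 4 controls and 12.67, 12.46, 12.70 and 12.98 in the restricted rats (log2 change -0.70, SE 0.10, n = 4 and 4, adjusted p = 0.00872), and 13.47, 13.50, 13.56, 13.51 and 13.44 against 12.75, 12.69, 12.53, 12.64 and 12.36 at day 10 (log2 change -0.90, SE 0.068, n = 5 and 5, adjusted p = 9.78e-05). All restricted rats were below all controls, 1.62-fold on average at day 4 and 1.87-fold at day 10. The day 4 call of Mbl2 was lost with replicate number as a block (adjusted p = 0.0667). The second Mbl2 probe set fell as well, by -0.80 (adjusted p = 0.0165) and -1.09 (adjusted p = 0.000237). Mbl1, the other mannose-binding lectin gene of the rat, did not pass the test: its change was 0.068 at day 4 (95% interval -0.11 to 0.25) and -0.058 at day 10 (-0.19 to 0.071).

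Masp2, a protease carried by these lectins, was higher at day 4, at 11.10, 11.01, 11.06 and 11.12 in controls and 11.36, 11.27, 11.38 and 11.32 in restricted rats without overlap (log2 change 0.26, SE 0.034, n = 4 and 4, adjusted p = 0.00561). At day 10 Masp2 had a change of 0.17 (95% interval 0.056 to 0.29, adjusted p = 0.0676). A second Masp2 probe set had changes of 0.13 at day 4 (adjusted p = 0.0483) and -0.024 at day 10 (adjusted p = 0.99999), and the other one 0.031 and 0.41 (adjusted p = 0.972 and 0.403). Masp1, the other lectin-associated protease, had a change of -0.36 (95% interval -0.70 to -0.030, adjusted p = 0.196) at day 10, and its change was -0.049 and -0.65 within the scan days. It was called without restricted rat 1 (adjusted p = 0.0273). A second Masp1 probe set was called lower at day 10 (-0.57, SE 0.11, adjusted p = 0.00765) and had a change of 0.27 at day 4 (adjusted p = 0.231), and the remaining one was not called at day 10 (-0.44, adjusted p = 0.160). C3, on which the pathways converge, is one of the 7 genes near the top of the scale and had a change of -0.050 (95% interval -0.086 to -0.015, adjusted p = 0.0783) at day 10, with the groups apart by 1.04-fold.

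Of the 6 terminal complement genes, which build the membrane pore, 1 fell at day 4 and 4 at day 10 (median change -0.31 at day 10). C6 had the largest change of all 36 genes at both times. It read 11.69, 11.20, 11.16 and 11.68 in the day 4 controls and 10.48, 10.43, 10.25 and 10.54 in the restricted rats. At day 10 C6 read 11.43, 11.57, 11.70, 11.42 and 11.83 against 10.35, 10.21, 10.04, 9.43 and 9.87. The groups were apart by 2.01-fold at day 4 (log2 change -1.01, SE 0.14, n = 4 and 4, adjusted p = 0.00846) and 3.05-fold at day 10 (log2 change -1.61, SE 0.17, n = 5 and 5, adjusted p = 0.000394). Among the restricted rats of day 10 the values spread more than among the controls, with SDs of 0.36 and 0.18. Within the scan days the fall was -1.29 and -1.85. The change at day 10 was larger than at day 4 by 0.60 in size, a difference that was not called (-0.60, SE 0.24, adjusted p = 0.419).

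At day 10 C9, C8a and C5 fell by less than C6, and C8b and C8g were not called. C9, the subunit that polymerises into the pore, read 14.24, 14.15, 14.25, 14.32 and 14.30 in the day 10 controls and 13.83, 13.89, 13.88, 13.68 and 13.23 in the restricted rats (log2 change -0.55, SE 0.12, n = 5 and 5, adjusted p = 0.0158), and restricted rat 5 had the lowest value. At day 4 C9 had a change of -0.27 (95% interval -0.41 to -0.12, adjusted p = 0.0515), without overlap, and was called without control 3 (adjusted p = 0.0455) or restricted rat 3 (adjusted p = 0.0412). C8a, a chain of C8, read 13.35, 13.32, 13.57, 13.51 and 13.57 against 13.18, 13.24, 13.23, 13.14 and 12.97 at day 10 (log2 change -0.31, SE 0.070, n = 5 and 5, adjusted p = 0.0185). Replicate number as a block lost the day 10 calls of C9 (adjusted p = 0.0597) and C8a (adjusted p = 0.0849). C5, whose cleavage starts the terminal pathway, fell at day 10 (log2 change -0.30, SE 0.060, n = 5 and 5, adjusted p = 0.0116). C8b, next to C8a on chromosome 5, had a change of -0.13 (95% interval -0.22 to -0.050, adjusted p = 0.0512), and was called without control 1 (adjusted p = 0.0142) or restricted rat 1 (adjusted p = 0.0315). C8g, the third chain of C8, had a change of 0.078 (95% interval -0.055 to 0.21, adjusted p = 0.673), so that the 3 chains of 1 protein did not all pass the test.

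**Figure D3:**
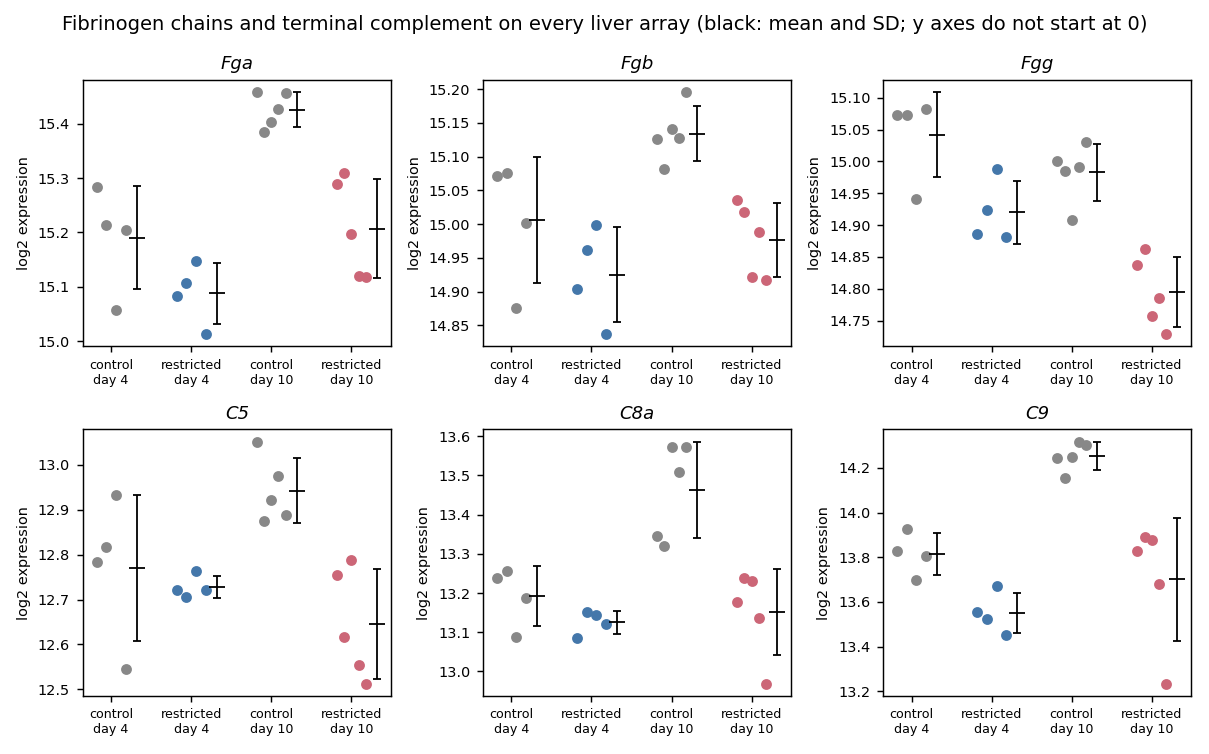
Log2 expression of the 3 fibrinogen chains and of C5, C8a and C9 on every liver array, with the group mean and SD in black; the y axes do not start at 0 and differ between panels. At day 10 all restricted rats lie below all controls for each of the 6 genes, while at day 4 the groups overlap for all but C9.

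The 2 chains of the C4b-binding protein, which speeds the breakdown of C4b and carries protein S in plasma, took opposite directions at day 10. C4bpb, the beta chain that binds protein S, read 11.88, 11.96, 11.76 and 11.87 in the day 4 controls and 12.30, 12.21, 12.27 and 12.26 in the restricted rats (log2 change 0.39, SE 0.043, n = 4 and 4, adjusted p = 0.00328). At day 10 it read 12.23, 12.37, 12.33, 12.31 and 12.50 against 12.53, 12.72, 12.67, 12.68 and 12.61 (log2 change 0.30, SE 0.052, n = 5 and 5, adjusted p = 0.00566). C4bpb was thus higher in every restricted rat at both times. C4bpa, the alpha chain, read 13.74, 13.69, 13.49 and 13.60 against 13.83, 13.83, 13.77 and 13.71 at day 4, with overlap, and 14.04, 14.07, 14.03, 14.04 and 14.13 against 13.86, 13.96, 13.94, 13.93 and 13.89 at day 10, where all restricted rats were lower. Its change was 0.15 at day 4 (adjusted p = 0.232) and -0.15 at day 10 (adjusted p = 0.00483), and the difference between them was -0.30 (SE 0.060, adjusted p = 0.0322). This difference was lost without any 1 of 10 arrays, day 4 restricted 1, 2 or 3, day 4 control 4, day 10 control 2, 4 or 5 and day 10 restricted 3, 4 or 5 (adjusted p 0.0517 to 0.0796). It was also lost with each array centred on its median (adjusted p = 0.176), with quantile normalization (adjusted p = 0.0642) and with replicate number as a block (adjusted p = 0.0610). The day 10 call of C4bpa was itself lost with each array centred on its median (adjusted p = 0.0515). The genes lie on chromosome 13 with 1 gene between them. Cfi, the protease that cuts C3b and C4b, had a change of 0.16 (95% interval 0.0076 to 0.32, adjusted p = 0.294) at day 4 and a change of -0.035 (95% interval -0.13 to 0.065, adjusted p = 0.964) at day 10.

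Of the plasma carriers, Ttr, the thyroxine and retinol carrier transthyretin, read 15.33, 15.34, 15.30 and 15.34 in the day 4 controls and 15.23, 15.14, 15.12 and 15.21 in the restricted rats (log2 change -0.15, SE 0.029, n = 4 and 4, adjusted p = 0.0233). The groups were apart, by 1.11-fold. The day 4 call was lost without control 1, 2 or 4 or without restricted rat 2 or 3 (adjusted p 0.0516 to 0.0725). Processing also mattered for this call. It was lost among genes with a mean of at least 5, with each array centred on its median and with replicate number as a block (adjusted p 0.0614 to 0.0886). At day 10 Ttr had a change of -0.11 (95% interval -0.18 to -0.039, adjusted p = 0.0551), and was called without control 3 (adjusted p = 0.0437) or restricted rat 2 (adjusted p = 0.0298). Ahsg, fetuin-A, had a change of -0.060 (95% interval -0.10 to -0.018, adjusted p = 0.0793) at day 10, and Ambp, the precursor of alpha-1-microglobulin and bikunin, had a change of 0.000025 with a 95% interval of -0.048 to 0.048.

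In white adipose tissue, 0 of the 36 genes were called by limma, and 2 had an unadjusted p below 0.05, Pros1 and Ttr; over all genes 0.0352% were called higher and 0.0703% lower. The array records name a fluidics protocol for the 4 restricted adipose arrays and none for the 4 controls, so a difference in array handling and the group cannot be told apart. For the probe sets of Pros1, C6, C1r and C1s the mean in the adipose controls was at least 9, at 9.65 ± 0.16, 9.81 ± 0.55, 12.37 ± 0.40 and 12.99 ± 0.33 (SD, n = 4). In adipose tissue the changes of C1r and C1s were 0.066 (95% interval -0.39 to 0.53) and 0.00396 (-0.46 to 0.47), and those of C6 and Pros1 were -0.77 (-1.67 to 0.13) and -0.58 (-0.82 to -0.34). Ttr had an adipose change of -2.41 (adjusted p = 0.258). The 11 hepatocyte markers had a median adipose change of -0.37, and their mean per array was 4.17 to 5.46 in the adipose controls and 3.59 to 3.80 in the restricted rats. Most of these markers had low signal, with 7 of 11 in the controls and 9 of 11 in the restricted rats at or below the array median. The part of liver transcripts in the adipose values was not tested.

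Genes of the same pathways outside the list of 36 were counted as well. Of 19 further clotting genes 0 rose and 2 fell at day 4, where 4.53% and 3.97% of all genes were called, and 1 rose and 5 fell at day 10, where 8.67% and 8.15% were, or 16.4% and 15.3% of genes with a mean of at least 5. At day 10 F3, F13a1, Vwf, Tfpi, Thbd, Procr, Serpina5, Plat, Plau and A2m had means below 5 in both groups. The shares of genes with a mean of at least 5 therefore do not match the whole list. Vkorc1, the reductase that recycles vitamin K, fell at both times (log2 change -0.79, SE 0.093, adjusted p = 0.00403 at day 4; log2 change -0.33, SE 0.051, adjusted p = 0.00293 at day 10). Ggcx, the carboxylase that uses vitamin K to modify the clotting factors, fell at day 4 (log2 change -0.36, SE 0.070, adjusted p = 0.0294). Lman1, a receptor that carries factor V and factor VIII out of the endoplasmic reticulum, fell at day 10 (log2 change -0.37, SE 0.079, adjusted p = 0.0152), when F5 itself was higher. Plau, the urokinase-type plasminogen activator, fell at day 10 (log2 change -0.45, SE 0.12, adjusted p = 0.0461). Its signal was low, with means of 4.91 in controls and 4.46 in restricted rats. Hgfac, the activator of hepatocyte growth factor, rose at day 10 (log2 change 0.31, SE 0.065, adjusted p = 0.0151).

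Of 18 further complement genes 1 rose and 3 fell at day 4, and 1 rose and 7 fell at day 10, against the same shares of all genes (4.53% and 3.97%, and 8.67% and 8.15%). The 3 chains of C1q, the recognition unit that C1r and C1s bind, led the falls at both times. C1qa changed by -0.61 at day 4 and -0.89 at day 10, C1qb by -0.57 and -1.06, and C1qc by -0.72 and -1.01. All 6 of these changes passed the test (adjusted p from 0.000978 to 0.0161). The 3 genes also belong to the list of Kupffer cell and macrophage markers given above. Cpn1, the catalytic chain of the carboxypeptidase that inactivates C3a and C5a, rose (log2 change 0.38, SE 0.056, adjusted p = 0.00969 at day 4; log2 change 0.40, SE 0.056, adjusted p = 0.00176 at day 10).

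Of 15 measured regulators of liver secretory genes 0 were called at day 4, and 3 rose and 1 fell at day 10. Over all genes 4.53% and 3.97% were called at day 4 and 8.67% and 8.15% at day 10. Among genes with a mean of at least 5 over both groups, 16.4% were called higher at day 10. With so few regulators, the 0 calls at day 4, the 3 rises and the 1 fall do not stand apart from these backgrounds. The receptor chains for interleukin-6, the cytokine that drives the acute-phase response, were higher: Il6r (log2 change 1.95, SE 0.21, adjusted p = 0.000478) and Il6st (log2 change 0.65, SE 0.10, adjusted p = 0.00366). The nuclear receptor Nr1i2 rose (log2 change 1.54, SE 0.14, adjusted p = 0.000212) and Foxa1, a forkhead factor of liver and other endoderm, fell with overlapping groups (log2 change -0.71, SE 0.19, adjusted p = 0.0427).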

How the data were processed

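RNA of rat liver and adipose tissue was measured on 26 Affymetrix arrays. Per the submitters' processing notes the authors worked in R 2.4.1 and used affy 1.12.2, RMA and GCRMA 2.6.0. The sources used here do not say whether the values are those of RMA or of GCRMA. Adipose tissue, day 4 liver and day 10 liver were pre-processed apart, per the series description of the authors. The deposited log2 values were used as the authors deposited them.

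Of 31099 probe sets 57 controls were left out. Of the 31042 tested, 20826 had 1 symbol in the platform annotation, 436 several and 9780 none. Each set was fitted alone with limma 3.58.1 in R 4.3.3 (lmFit and eBayes, two-sided). P-values were adjusted by Benjamini and Hochberg's method over the 31042 probe sets, and the threshold was 0.05. The difference between the liver changes was fitted over all 18 liver arrays. Counts of all genes use 1 probe set per gene. The procedure was tested on simulated data. Intervals are 95%.

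The members and lists were chosen with earlier results of these data known. Full values are given for called genes among the 3 largest changes of their role group and for called differences, with at most 2 uncalled genes per role group and time, and up to 4 called genes of each further list. Other uncalled genes are named where a count of chains or members calls for them, after their values were seen. Deviations of same-numbered arrays of the 2 groups were weakly correlated (correlations -0.086 to 0.17 at day 4 and -0.083 to 0.099 at day 10), and the numbers were not taken to pair samples. With so few arrays per group this check cannot exclude a pairing. Protein identities were not computed. Python 3.11.15, pandas 2.3.3, numpy 2.4.6 and matplotlib 3.10.9 served for sequences and figures.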

Additional observations from a re-analysis of the deposited data

Results flagged for a closer look

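In 152 groups of 4 or 5 arrays, 1 for each gene and group (144 in liver, and 8 in adipose tissue for Pros1, C6, C1r and C1s), 8 had an array far from the others by Dixon's test. Over all 152 groups this is about as many as the 1 in 20 that chance gives. All 8 were in day 4 liver, where the share was therefore above 1 in 20. Genes of the same arrays are not independent, so the count was not tested further. Among the restricted rats, rat 1 was highest for F2 (14.67, the nearest other at 14.59) and for Proc (13.03, nearest 12.97). Restricted rat 2 was highest for Pros1 (11.54, nearest 11.40) and lowest for Cfi (13.70, nearest 13.75) and Ahsg (15.58, nearest 15.70). Among the controls, rat 3 was lowest for Fgg (14.94, nearest 15.07) and Serpinf2 (12.37, nearest 12.55), and rat 2 was highest for C8g (13.21, nearest 13.09).

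The liver change at day 10 was lower than that at day 4 for C1r (difference -0.69), C1s (-0.62) and C4bpa (-0.30) by limma's test of the difference.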

How the results depend on the processing

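Over the alternatives the changes called at day 4 kept their sign in 114 of 114 values, those at day 10 in 401 of 402 and the differences in 72 of 72. The exception was the second Fgb probe set, near background at both times (0.00765 at day 10, adjusted p = 0.99999). Called under every alternative were F5, Masp2, C6 and C4bpb at day 4, Proc, C1r, C1s, Mbl2 and C6 at day 10, and C1r and C1s for the difference; 13 of the 21 day 10 calls held in all but the single scan days. Quantile normalization gave 3 genes higher at day 4. With replicate number as a block, 1 gene was lower at day 4 and 9 at day 10, and in the further lists 3 and 8. The numbers were not taken to pair the samples, though 3 of 5 pairs at day 10 and 1 of 4 at day 4 correlated best with their own number. A mean of at least 5 gave 2 higher in the further lists at day 4. With scan day as a block 6 rose and 14 fell; scan day 1 alone gave 2 higher and 4 lower and scan day 2 alone 2 and 7, with fewer arrays. Leaving out 1 array gave 4 to 5 higher and 2 to 5 lower at day 4, 5 to 7 and 13 to 16 at day 10, 2 to 4 lower differences and 0 higher, and 0 to 0 calls in adipose tissue. The causes were not tested. Whether signal near the top of the scale limits the changes read for 7 genes was not tested, and few arrays limit small changes.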
